A study of Arabidopsis thaliana with 24 samples.

Results

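Wild-type seedlings of Arabidopsis thaliana sprayed with hydrogen peroxide (H2O2) were compared with wild-type seedlings sprayed with the mock solution. The 6 samples, 3 H2O2 and 3 mock, were chosen by their labels from the 24 samples of the series, which also holds a bzip68 mutant under both sprays, low-light seedlings of both genotypes that are not analysed here, and chromatin immunoprecipitation of bZIP68-FLAG and GFP-FLAG. Both groups were whole wild-type (wt) seedlings aged 14 days, raised on sucrose-containing plates at 125 µmol of white light per square metre per second. Mock plants received water with 0.01% Triton X-100, a detergent that both groups share, and treated plants received 5 mM H2O2 in the same detergent. No label gives the time of day, the time from spray to harvest, or whether the 3 samples of a group were grown apart. The p-values therefore set each difference only against the spread within groups of libraries, estimated with the 6 sprayed bzip68 libraries included. Part of that spread may be technical.

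Hydrogen peroxide is a reactive oxygen species that chloroplasts, peroxisomes and mitochondria make and that also serves as a signal. Catalases and peroxidases remove it, and cells that meet more of it commonly induce chaperones, glutathione S-transferases and stress transcription factors. Many plant genes are also driven by the circadian clock, in which the dawn factors LHY and CCA1 repress evening genes and the evening factors repress the dawn genes. In whole seedlings, fewer cells of a type and less RNA per cell cannot be told apart.

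The counts of RNA-seq reads were tested for 18205 genes, and 1773 genes changed after H2O2 (9.74%), of which 913 rose (5.02% of those tested) and 860 fell (4.72%). A gene was called at a Benjamini-Hochberg adjusted p under 0.05 in edgeR's quasi-likelihood test, and levels are given in each library as CPM, counts scaled to library size. At least 2-fold changes were found for 361 of the rising genes (1.98% of those tested) and 294 of the falling genes (1.61%), and 81 rose and 35 fell at least 4-fold. The median log2 fold change of all genes was 0. Mock and H2O2 libraries did not overlap, with H2O2 higher, for 14.5% of all genes and, with H2O2 lower, for 14.4%. Without mock replicate 3 the rising genes numbered 549 and without mock replicate 1 they numbered 588. The falling genes numbered 557 without mock replicate 1 and 541 without H2O2 replicate 3.

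Libraries held 9198661 to 10262992 counts. H2O2 replicate 2 stood apart: chloroplast genes took 0.0121% of its counts, while the other 5 libraries had 1.06% to 1.14%. Among 69 chloroplast-encoded genes, 68 had negative log2 fold changes (median -0.55, against 0.39 in bzip68), and 0 were called. Together they held 11300, 11200 and 10500 CPM in mock libraries. In H2O2 replicates 1, 2 and 3 they held 11100, 116 and 11300 CPM. The part of H2O2 replicate 2 in the negative values was not tested. With that library and replicate 2 of the bzip68 mock group left out, a choice made after seeing the data, 900 genes rose and 836 fell. The leaf transcript LHCB1.3, which encodes a light-harvesting protein, was at 22200 ± 1670 CPM (SD, n = 3) in mock and 26000 ± 2520 CPM in H2O2 libraries. Among other leaf transcripts, RBCS1B of Rubisco fell (log2 fold change -0.97 ± 0.16, standard error) and its relative RBCS1A did not pass the test. The 15 tested of 20 root markers together held 165 to 209 CPM in mock and 135 to 190 CPM in H2O2 libraries, and none of 8 seed storage genes passed the filter on low counts. BZIP68 (AT1G32150) itself did not pass the test, with 7.9, 9.15 and 10.1 CPM in mock and 8.56, 8.75 and 7.1 CPM in H2O2 libraries (log2 fold change -0.15 ± 0.21, standard error, adjusted p = 0.75).

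**Figure D1:**
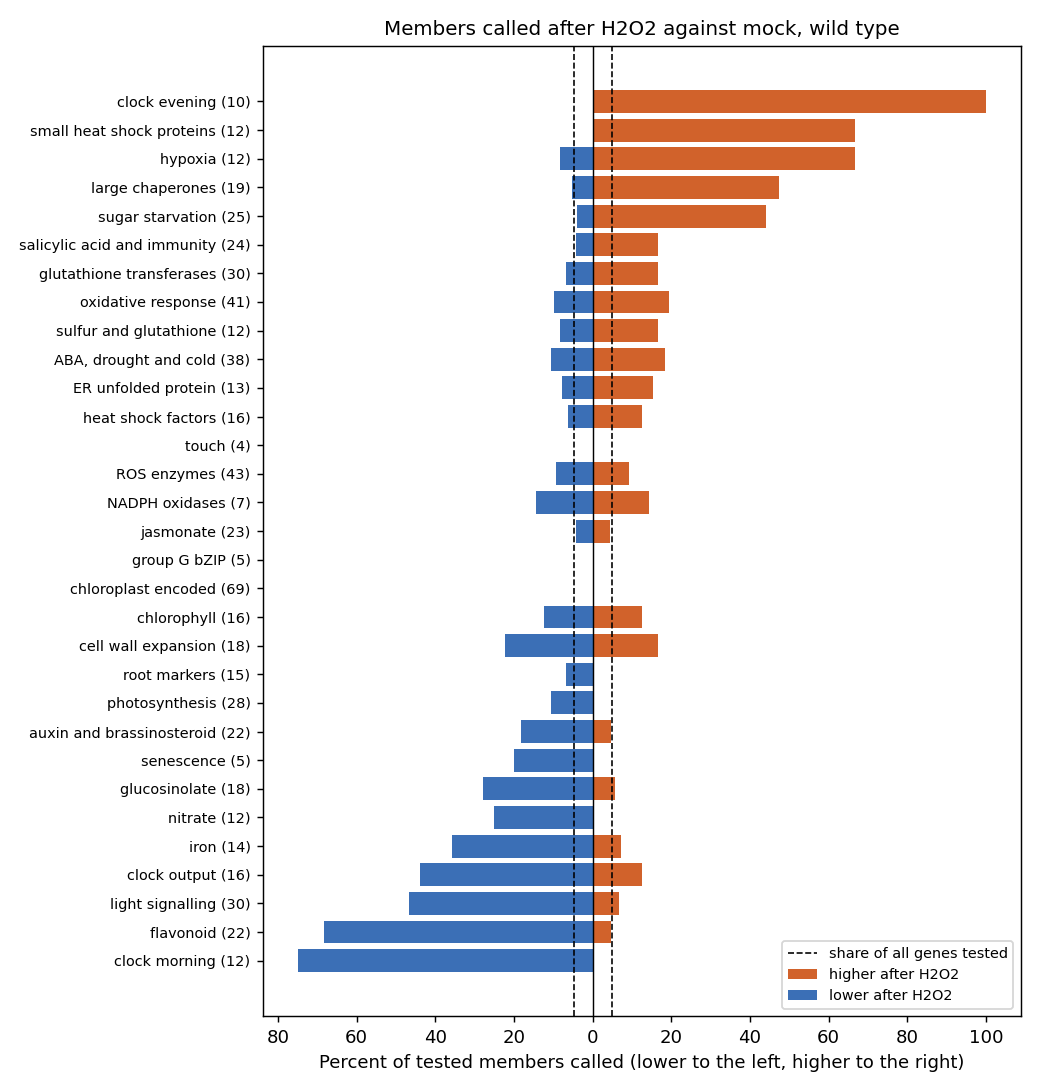
Percent of the tested members of each gene list that were called higher (right, orange) or lower (left, blue) after H2O2 in the wild type, with the number tested in parentheses and dashed lines at the shares of all genes tested (5.02% and 4.72%). Evening clock genes, small heat shock proteins and hypoxia genes reach furthest to the right, and morning clock, flavonoid and light signalling genes furthest to the left.

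Promoters of 2 genes are shown, each of them the symbol-bearing member with the largest change among those of its list that hold a DNA motif known for that list. They are the 250 bases before the annotated start, 5′ to 3′ on the strand of the gene, from the RefSeq annotation and sequence of build TAIR10.1. Capitals mark the heat shock element in HSP17.4, which is GAA, TTC and GAA (or TTC, GAA and TTC) with 2 bases between the units (chr3:16984868-16985117, minus strand) and the G-box CACGTG in LHY (chr1:37872-38121, minus strand).
HSP17.4: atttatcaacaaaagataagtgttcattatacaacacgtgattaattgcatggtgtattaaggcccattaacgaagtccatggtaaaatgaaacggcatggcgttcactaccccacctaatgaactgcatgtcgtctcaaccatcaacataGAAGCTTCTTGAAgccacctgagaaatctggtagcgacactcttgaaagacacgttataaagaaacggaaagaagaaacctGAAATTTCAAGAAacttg
LHY: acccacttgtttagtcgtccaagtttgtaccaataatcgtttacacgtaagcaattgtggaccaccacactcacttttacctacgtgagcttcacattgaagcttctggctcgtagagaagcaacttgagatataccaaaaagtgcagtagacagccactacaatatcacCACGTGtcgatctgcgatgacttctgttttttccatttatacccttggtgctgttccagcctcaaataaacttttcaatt
The elements of HSP17.4 begin 99 and 18 bases before the start, and the G-box of LHY 80 bases before it.

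The 10 tested evening-phased clock genes all rose after H2O2 (100%, against 5.02% of all genes), with a median log2 fold change of 2.94, and mock and H2O2 libraries did not overlap for any of them (14.5% of all genes lay apart in that direction). All 10 calls were made with any 1 library left out. FKF1 (AT1G68050), an F-box blue-light receptor of photoperiodic flowering, had the smallest adjusted p of all genes with a symbol. Its level was 2.78, 2.12 and 2.38 CPM in mock and 51.4, 46.1 and 51.3 CPM in H2O2 libraries, a log2 fold change of 4.35 ± 0.15 (adjusted p = 1.4e-10). COR27, a cold-regulated gene of the clock, had 0, 0.223 and 0 CPM in mock and 4.72, 8.65 and 7.1 CPM in H2O2 libraries. Mock libraries held 2 counts of COR27 in all and H2O2 libraries 210, a ratio of 97.4 on scaled library sizes (95% exact binomial interval 26.6 to 809, counting error only). AT4G33980, annotated as an uncharacterized protein, had 3 counts in mock and 126 in H2O2 libraries, a ratio of 39.0 (13 to 191).

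Transcripts rose for all 3 parts of the evening complex, a repressor made of ELF3, ELF4 and LUX. ELF4 went from 0.747, 1.0 and 0.992 CPM to 11.8, 13.4 and 11.1 CPM (log2 fold change 3.70 ± 0.21, adjusted p = 6.83e-08). LUX went from 12.7, 14.7 and 11.2 CPM to 45.9, 43.6 and 49.3 CPM (1.85 ± 0.13, adjusted p = 3.74e-07), and ELF3 from 38.4, 37.6 and 31.0 CPM to 71.9, 90.8 and 84.1 CPM (1.21 ± 0.17, adjusted p = 0.000207). In none of the 3 genes did a mock library reach the lowest H2O2 library, which for ELF4 its place among the 12 largest rises required. The pseudo-response regulators PRR5, PRR3 and TOC1, repressors of the dawn genes, had log2 fold changes of 2.87 ± 0.22, 3.01 ± 0.30 and 1.72 ± 0.19. GI, a scaffold for FKF1, rose least of the list, from 177, 160 and 171 CPM to 303, 338 and 317 CPM (0.92 ± 0.14, adjusted p = 0.000498).

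Of the 12 morning-phased clock genes, 9 fell (75.0%, against 4.72% of all genes), with a median log2 fold change of -1.27. LHY, a MYB-like repressor that peaks at dawn, was at 22.6, 19.2 and 22.7 CPM in mock and 2.26, 2.07 and 2.23 CPM in H2O2 libraries (log2 fold change -3.29 ± 0.22, adjusted p = 3.46e-07). CCA1, its partner and close homologue, was at 128, 98.2 and 138 CPM in mock and 26.7, 33.5 and 21.3 CPM in H2O2 libraries (-2.16 ± 0.19, adjusted p = 1.97e-06). Both groups stayed apart for both genes, which for LHY its place among the 12 largest falls required. LHY varied little within each group. RVE8, a MYB-like activator of evening genes, changed by -2.58 ± 0.22, and its relative RVE1 by -1.54 ± 0.32. LNK1 to LNK4, transcriptional co-activators of the RVE factors, changed by -0.51 to -1.49. LNK4 was not called without mock replicate 1, H2O2 replicate 1 or H2O2 replicate 3 (adjusted p up to 0.072), and LNK1 was called with no library left out and without mock replicate 2 but in no other leave-out (adjusted p up to 0.156). The pseudo-response regulator PRR9 fell (-1.36 ± 0.22, adjusted p = 0.000817), whereas PRR7, which follows it in the day, had 0.46 ± 0.17 (adjusted p = 0.106). RVE2 (0.78 ± 0.41) and RVE7 (-0.18 ± 0.13) also did not pass.

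**Figure D2:**
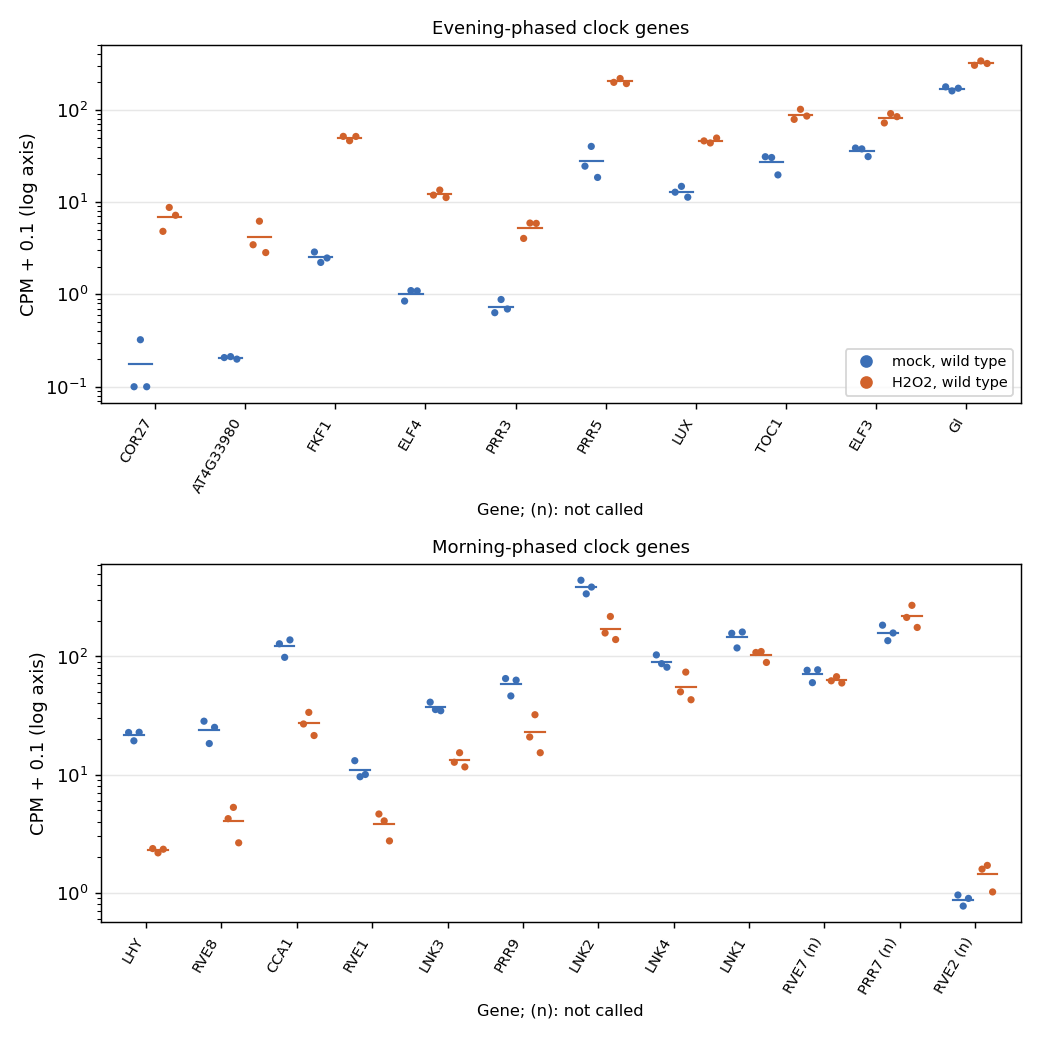
Levels of evening-phased (top) and morning-phased (bottom) clock genes in the 3 mock (blue) and 3 H2O2 (orange) wild-type libraries, in CPM plus 0.1 on a log axis, with bars at the group means. The groups do not overlap for any evening gene, and LHY, RVE8 and CCA1 show the widest gaps among the morning genes.

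Outputs of the clock moved as well, with 2 of 16 tested genes higher (12.5%, against 5.02% of all genes) and 7 lower (43.8%, against 4.72%). GRP7, an RNA-binding protein that peaks in the evening, was at 105, 125 and 86.7 CPM in mock and 745, 950 and 817 CPM in H2O2 libraries (log2 fold change 2.99 ± 0.16, adjusted p = 6.23e-08). COL2, a zinc finger protein related to CONSTANS, fell from 63.3, 54.1 and 73.1 CPM to 20.2, 16.8 and 17.7 CPM (-1.80 ± 0.13). COL9, a relative of COL2 outside the list, was among the 12 largest rises, at 3.34 ± 0.23. Because the labels give no time of harvest, the spray and the phase of the day at which each group was collected cannot be told apart, and this bears on every gene list below whose members cycle.

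Small heat shock proteins, which hold unfolded proteins in solution, rose in 8 of 12 tested members (66.7%, against 5.02% of all genes). Their median log2 fold change was 2.53, with 12 of 12 positive values. HSP17.4 was at 1.92, 1.67 and 0.992 CPM in mock and 29.2, 35.0 and 19.0 CPM in H2O2 libraries (log2 fold change 4.18 ± 0.29, adjusted p = 5.18e-07). HSP17.6A went from 1.49, 0.335 and 0.297 CPM to 17.7, 26.1 and 16.6 CPM (4.81 ± 0.38), and HSP17.6II from 2.24, 0.669 and 0.595 CPM to 14.9, 21.9 and 15.5 CPM (3.89 ± 0.33). In these 3 genes the lowest H2O2 library lay above the highest mock library, as their place among the 12 largest rises required. The same order held for 10 of the 12 tested members, against 14.5% of all genes. Mock replicate 1 was the highest mock library for HSP17.4, HSP17.6A and HSP17.6II. Without mock replicate 1 the log2 fold change was 5.94 for HSP17.6A and 4.76 for HSP17.6II. Of the members without a symbol, all annotated as HSP20-like chaperones, AT1G53540 had the largest change, 5.05 ± 0.34 (6.02 without mock replicate 1), and AT1G07400, AT2G29500 and AT1G59860 had 3.68 ± 0.25, 2.78 ± 0.25 and 2.13 ± 0.19. AT1G52560 had 8 counts in mock and 44 in H2O2 libraries and was not called without any 1 of 4 libraries (mock replicate 2 or 3, H2O2 replicate 1 or 2, adjusted p up to 0.123). The mitochondrial HSP23.6-MITO (1.59 ± 0.60, adjusted p = 0.116), HSP18.2 (0.34 ± 0.34), AT5G51440 (0.31 ± 0.35) and AT4G21870 (0.17 ± 0.17) did not pass. These genes are alike in sequence, so counts may be split among them.

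The larger chaperones and their partners gave 9 rises (47.4%, against 5.02% of all genes) and 1 fall (5.26%, against 4.72%) among 19 tested. The 9 rises were found with any 1 library left out. HSP101, the disaggregase that rescues aggregated proteins, went from 15.9, 11.8 and 12 CPM to 102, 138 and 77.6 CPM (log2 fold change 3.00 ± 0.29, adjusted p = 2.41e-05). The heat-induced cytosolic HSP90.1 went from 24.4, 18.4 and 15.9 CPM to 130, 153 and 98.1 CPM (2.70 ± 0.20, adjusted p = 7.11e-07). Its close relatives HSP90.2 and HSP90.3 did not pass. HSP70B (2.93 ± 0.25) and FES1A, a co-chaperone of HSP70 (2.05 ± 0.21), rose, as did BAG6, HOP3, MBF1C, HSP70 and ROF2 (log2 fold changes 1.27 to 2.31). H2O2 replicate 3 was the lowest of its group for HSP101, HSP90.1, HSP70B and FES1A but still lay above every mock library. For HSP101 its place among the 12 largest rises required this. CLPB3, a chloroplast disaggregase, was the 1 member that fell (-0.71 ± 0.13, adjusted p = 0.00182).

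**Figure D3:**
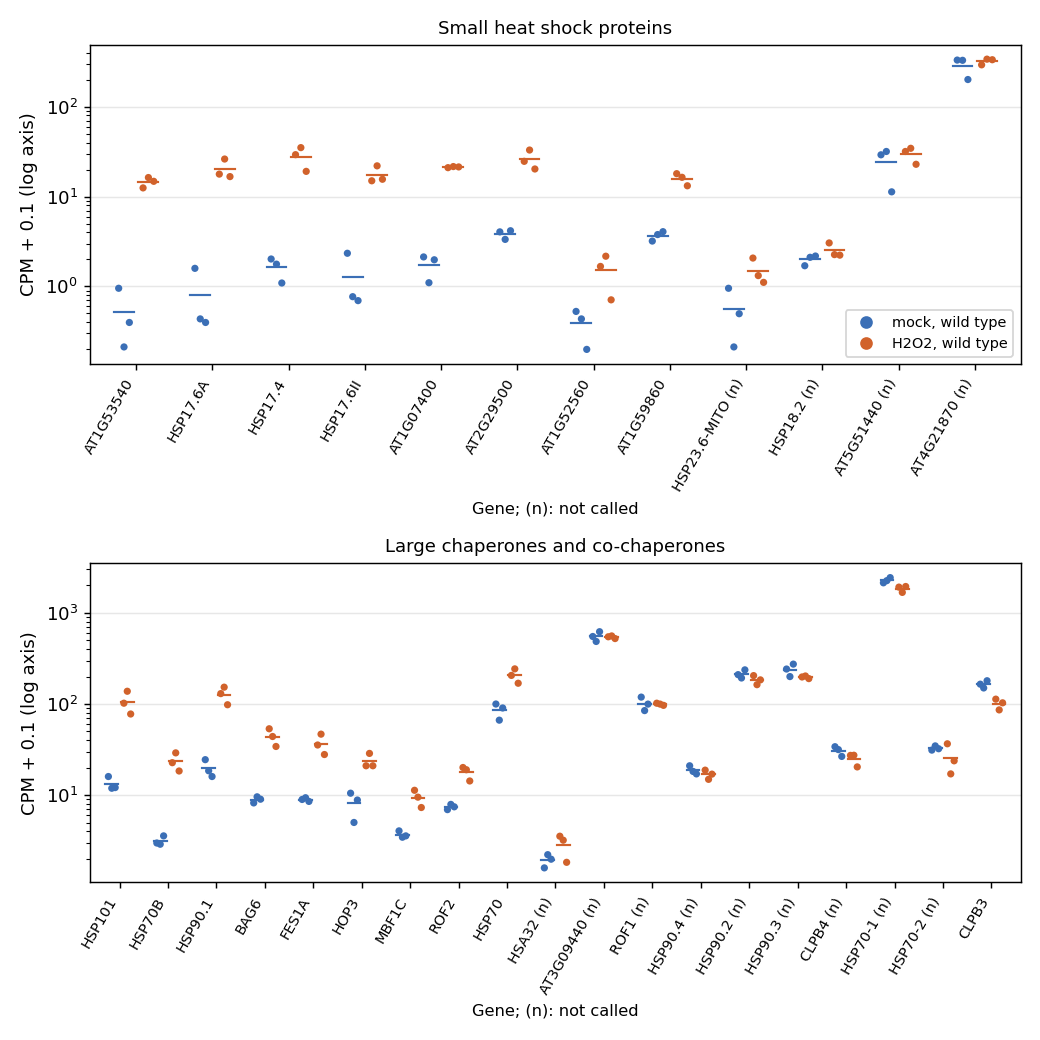
Levels of small heat shock proteins (top) and larger chaperones and co-chaperones (bottom) in the 3 mock (blue) and 3 H2O2 (orange) wild-type libraries, in CPM plus 0.1 on a log axis, with bars at the group means and (n) marking genes that were not called. The groups are far apart for the genes on the left of each panel, from a log2 fold change of 5.05 in AT1G53540, and overlap for AT5G51440 and AT4G21870.

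Among 16 tested heat shock transcription factors, 2 rose (12.5%, against 5.02% of all genes) and 1 fell (6.25%, against 4.72%). HSFA2, which sustains the heat response, was at 3.31, 0.892 and 2.38 CPM in mock and 7.28, 12.9 and 6.49 CPM in H2O2 libraries (log2 fold change 2.01 ± 0.39, adjusted p = 0.00425). HSFA8 went from 5.44, 4.24 and 4.56 CPM to 11.4, 11.7 and 11.8 CPM (1.29 ± 0.15, adjusted p = 4.8e-05). HSFC1 changed by -0.67 ± 0.19 and was not called without mock replicate 1, mock replicate 3, H2O2 replicate 1 or H2O2 replicate 3 (adjusted p up to 0.139). The list's median was 0.06, near the 0 of all genes. Of 13 genes of the unfolded protein response in the endoplasmic reticulum, 2 were higher and 1 lower (all genes: 5.02% higher, 4.72% lower), with ERDJ3A, a co-chaperone of that compartment, at 1.11 ± 0.20. The other rise, BIP3, an HSP70 of that compartment (1.58), was not called without mock replicate 3, H2O2 replicate 1 or H2O2 replicate 3 (adjusted p up to 0.055). The fall, BZIP60 (-0.93), was not called without mock replicate 1, mock replicate 2, H2O2 replicate 2 or H2O2 replicate 3 (adjusted p up to 0.0977).

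Of 43 tested enzymes that remove reactive oxygen species, 4 were higher (9.30%, against 5.02% of all genes) and 4 lower (9.30%, against 4.72%). Their median log2 fold change was 0.01. The lower members numbered 2 without H2O2 replicate 1 or H2O2 replicate 3. The 3 catalases, which break H2O2 down in peroxisomes, moved in opposite directions. CAT2, the leaf catalase of photorespiration, was at 2070, 2320 and 2370 CPM in mock and 811, 638 and 777 CPM in H2O2 libraries (log2 fold change -1.60 ± 0.18, adjusted p = 2.44e-05). CAT3 went from 1510, 1570 and 1460 CPM to 2650, 2160 and 3190 CPM (0.82 ± 0.15, adjusted p = 0.00168), and CAT1 from 31.5, 42.5 and 26.8 CPM to 93.8, 87.9 and 103 CPM (1.5 ± 0.17, adjusted p = 2.44e-05). The groups did not overlap for any of the 3. CAT2 and CAT3 cycle with opposite phases as background knowledge, so the limit on harvest time applies to them.

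Of the peroxidases and reductases, GPX6, a glutathione peroxidase-like enzyme, rose from 113, 134 and 130 CPM to 216, 207 and 219 CPM (0.76 ± 0.11, adjusted p = 0.000317). GPX7, of the same family, fell from 5.12, 5.58 and 9.42 CPM to 2.56, 2.54 and 1.93 CPM (-1.52 ± 0.32, adjusted p = 0.00629). MDAR2, which regenerates ascorbate, changed by 0.46 ± 0.10 and was not called without mock replicate 3 (adjusted p = 0.054). The glutathione reductase GR1 (-0.61 ± 0.15) was not called without mock replicate 1, H2O2 replicate 1 or H2O2 replicate 3 (adjusted p up to 0.0673), and the stromal ascorbate peroxidase SAPX (-0.43 ± 0.12) was not called when any 1 library was left out (adjusted p up to 0.136). The cytosolic ascorbate peroxidase APX1 stood at 671, 709 and 664 CPM in mock and 569, 623 and 646 CPM in H2O2 libraries (-0.15 ± 0.12, adjusted p = 0.504). None of the listed superoxide dismutases passed, with log2 fold changes of -0.27 to 0.16.

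**Figure D4:**
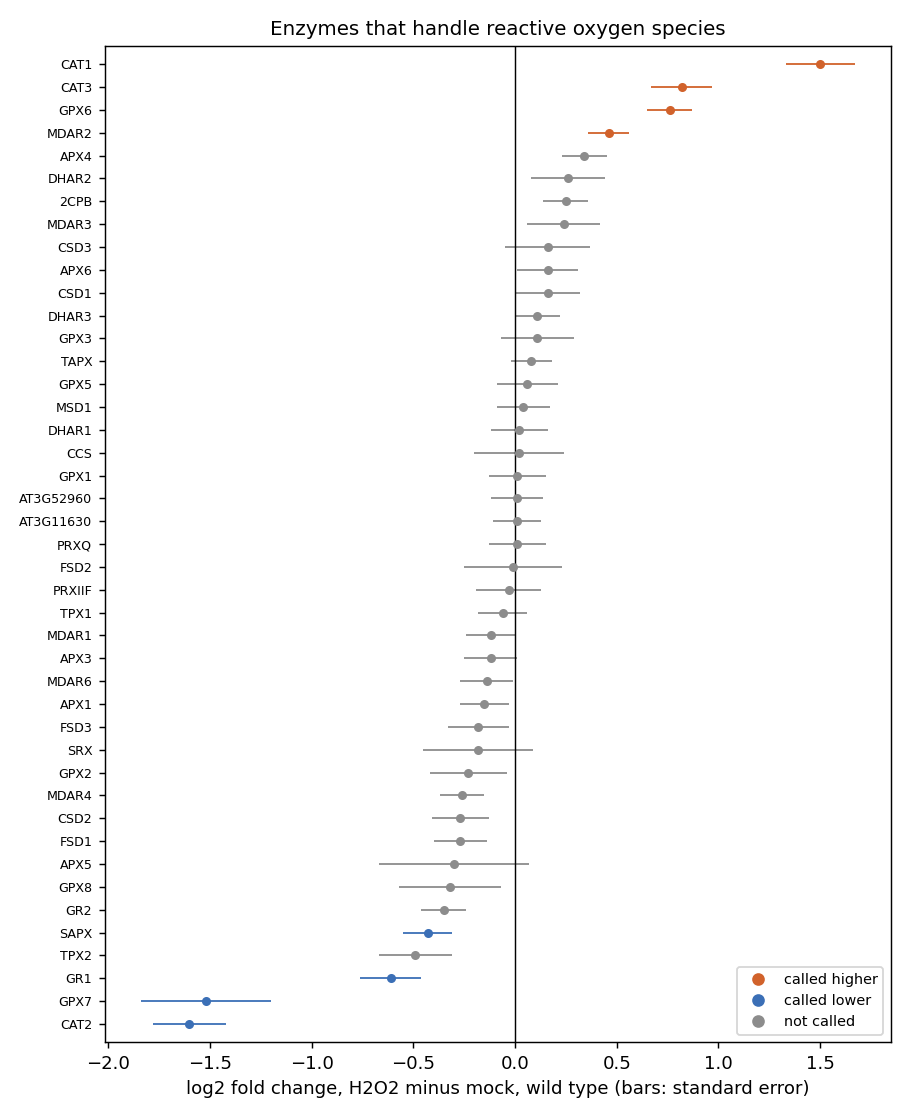
Log2 fold changes (H2O2 minus mock, wild type) of the 43 tested enzymes that handle reactive oxygen species, with bars of 1 standard error, coloured by call. CAT1 (1.5) and CAT2 (-1.60) lie at opposite ends, and most enzymes lie near 0.

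Genes known to respond to oxidative stress were 8 higher (19.5%, against 5.02% of all genes) and 4 lower (9.76%, against 4.72%) among 41 tested. CML37, a calmodulin-like calcium sensor, rose from 0.961, 0.781 and 0.694 CPM to 20.3, 30.8 and 15.2 CPM (log2 fold change 4.75 ± 0.36, adjusted p = 9.8e-07). WRKY75, a transcription factor of senescence and phosphate supply, went from 1.6, 1.0 and 1.69 CPM to 6.79, 11.5 and 6.19 CPM (2.49 ± 0.33), and ERF6, an ethylene response factor, from 13.8, 17.7 and 9.72 CPM to 33.6, 44.6 and 36.4 CPM (1.48 ± 0.19). In each of these 3 genes H2O2 replicate 2 was the highest library. Every H2O2 library lay above every mock library, as for 14.5% of all genes. For CML37 its place among the 12 largest rises required this. JUB1, a NAC factor that H2O2 is known to induce, rose by 1.80 ± 0.26, and the zinc finger repressor ZAT6 by 1.2 ± 0.25. The respiratory burst NADPH oxidases gave 1 rise, RBOHB, and 1 fall, AT4G25090, among 7 (14.3% each, against 5.02% and 4.72% of all genes). RBOHB (0.91 ± 0.26) was not called without mock replicate 1, mock replicate 3, H2O2 replicate 1 or H2O2 replicate 2 (adjusted p up to 0.154).

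The 4 members that fell are named after their values were seen. AOX1A, the alternative oxidase of the respiratory chain, was at 165, 226 and 85.4 CPM in mock and 67.9, 73.5 and 58.4 CPM in H2O2 libraries (-1.25 ± 0.28, adjusted p = 0.0122). AT2G21640, annotated as a marker for oxidative stress response, was at 22.8, 25.3 and 7.83 CPM in mock and 2.66, 3.48 and 3.75 CPM in H2O2 libraries (-2.49 ± 0.40, adjusted p = 0.00119). For both, mock replicate 3 lay far below the other mock libraries and above all H2O2 libraries. NAC013, a regulator of AOX1A, and the sulfotransferase SOT12 showed the same order, at -1.55 ± 0.38 and -1.84 ± 0.50. AOX1A was not called without H2O2 replicate 3 (adjusted p = 0.0578) or without both libraries that stand apart, and NAC013 and SOT12 were called without mock replicate 3 but in none of the other leave-outs (adjusted p up to 0.092 and 0.139). The list held 6 falling members without mock replicate 3, 1 without H2O2 replicate 3 and 2 without any other single library. Of other members with known ties to mitochondria, AOX1D (0.30), NAC017 (0.22), DIC2 (0.56), NDB2 (-0.11), OM66 (-1.59) and UGT74E2 (-1.70) did not pass the test.

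Glutathione S-transferases, which attach glutathione to toxic compounds, were 5 higher (16.7%, against 5.02% of all genes) and 2 lower (6.67%, against 4.72%) among 30 tested. The higher members numbered 3 without mock replicate 1, H2O2 replicate 1 or H2O2 replicate 2, and GSTU2 and GSTU4 were among those not called then. GSTU12 was at 0.107, 1.0 and 0.595 CPM in mock and 5.22, 4.04 and 5.28 CPM in H2O2 libraries (log2 fold change 3.07 ± 0.45, adjusted p = 0.000322, and 3.71 without mock replicate 2). GSTU10 rose by 1.29 ± 0.16, whereas GSTU17 fell from 103, 112 and 152 CPM to 52.0, 38.9 and 36.2 CPM (-1.53 ± 0.18, adjusted p = 4.01e-05). GSH2, glutathione synthetase, rose from 110, 101 and 92.7 CPM to 182, 204 and 184 CPM (0.91 ± 0.11, adjusted p = 8.33e-05). WCRKC1, a thioredoxin, rose from 3.31, 3.35 and 2.38 CPM to 23.7, 25.2 and 20.6 CPM (2.94 ± 0.21), with no overlap between groups.

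Genes that low oxygen induces were 8 higher (66.7%, against 5.02% of all genes) and 1 lower (8.33%, against 4.72%) among 12 tested. Their median log2 fold change was 1.48. ADH1, the alcohol dehydrogenase of fermentation, was at 3.42, 7.47 and 3.57 CPM in mock and 21.5, 27.5 and 28.5 CPM in H2O2 libraries (2.43 ± 0.28, adjusted p = 4.16e-05). PCO1, an oxygen sensor that marks group VII ethylene response factors for breakdown, went from 1.49, 1.12 and 1.39 CPM to 8.27, 10.7 and 10.7 CPM (2.87 ± 0.29, adjusted p = 9.94e-06). LBD41 (2.05 ± 0.24), HRA1 (1.47 ± 0.22) and PDC1, pyruvate decarboxylase (1.84 ± 0.30), also rose. Between 6 and 8 members were called higher as 1 library was left out. The member that fell was ERF71, a group VII factor, at 9.5, 14.5 and 3.87 CPM in mock and 2.26, 1.69 and 1.12 CPM in H2O2 libraries (-2.44 ± 0.51, adjusted p = 0.007), again with mock replicate 3 lowest in its group, and it was not called without both libraries that stand apart.

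Sugar starvation genes were 11 higher (44.0%, against 5.02% of all genes) and 1 lower (4.0%, against 4.72%) among 25 tested. Their median log2 fold change was 0.63. DRM2, a dormancy-associated gene, rose from 19.0, 21.3 and 13.5 CPM to 177, 145 and 181 CPM (3.23 ± 0.23, adjusted p = 5.33e-07). SEN1, which darkness induces, went from 4.59, 5.91 and 3.27 CPM to 25.1, 24.3 and 23.3 CPM (2.40 ± 0.30, adjusted p = 0.000105), and the raffinose synthase homologue DIN10 from 378, 452 and 231 CPM to 803, 981 and 872 CPM (1.32 ± 0.20). The groups did not overlap in these genes, and mock replicate 3 was the lowest library in each. Without mock replicate 3 the list had 7 members higher and without H2O2 replicate 3 it had 6. GBSS1, a granule-bound starch synthase and one of the 12 largest falls, went from 272, 180 and 279 CPM to 50.1, 52.9 and 36.8 CPM (-2.39 ± 0.22, adjusted p = 8.09e-06).

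Flavonoid genes were lower in 15 of 22 tested members (68.2%, against 4.72% of all genes) and higher in 1 (4.55%, against 5.02%). Their median log2 fold change was -0.84. The early enzyme CHS, chalcone synthase, was at 285, 434 and 314 CPM in mock and 185, 177 and 219 CPM in H2O2 libraries (-0.83 ± 0.16, adjusted p = 0.00313). F3H, which makes dihydroflavonols, fell from 120, 103 and 146 CPM to 38.5, 42.0 and 36.0 CPM (-1.67 ± 0.14, adjusted p = 1.84e-06). Falls were also found for 4CL3 (-1.37 ± 0.18), the flavonol synthase FLS1 (-0.85 ± 0.13), DFR (-1.30 ± 0.23) and the activator MYB12 (-1.19 ± 0.25). Mock and H2O2 libraries did not overlap in these genes. MYBL2, a repressor of the pathway, was the member that rose (0.61 ± 0.13, adjusted p = 0.00655). Between 11 and 14 members were called lower as 1 library was left out.

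Light signalling genes were 14 lower (46.7%, against 4.72% of all genes) and 2 higher (6.67%, against 5.02%) among 30 tested, with a median of -0.44. As 1 library was left out, between 10 and 13 members were called lower. The B-box protein BBX32 was at 8.97, 7.25 and 7.14 CPM in mock and 0.886, 1.41 and 0.812 CPM in H2O2 libraries (-2.89 ± 0.30, adjusted p = 1.7e-05). ELIP2, an early light-induced chlorophyll-binding protein, fell from 24.9, 32.0 and 20.1 CPM to 1.97, 5.08 and 5.07 CPM (-2.66 ± 0.36), and its relative ELIP1 by -1.76 ± 0.18. The transcription factor HYH, a homologue of HY5, changed by -1.76 ± 0.26, and SIG5, a sigma factor that chloroplasts import, by -1.82 ± 0.19. The blue-light receptor CRY2 rose, from 71.8, 74.1 and 60.2 CPM to 119, 115 and 117 CPM (0.77 ± 0.11, adjusted p = 0.00034).

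Photosynthesis genes of the nucleus gave 3 falls among 28 tested (10.7%, against 4.72% of all genes) and a median log2 fold change of 0.12. RBCS1B, a small subunit of Rubisco, fell from 2100, 2710 and 2970 CPM to 1630, 1010 and 1350 CPM (-0.97 ± 0.16, adjusted p = 0.0011), while RBCS1A had 0.01 ± 0.16 (adjusted p = 0.981). The other 2 were RBCS2B, not called without H2O2 replicate 2 (adjusted p = 0.0509), and PSBS, not called when any 1 library was left out (adjusted p up to 0.113). In chlorophyll synthesis, PORB, a light-dependent protochlorophyllide reductase, rose from 267, 273 and 235 CPM to 1080, 948 and 901 CPM (1.92 ± 0.16, adjusted p = 1.62e-06). HEMA1, which encodes the first committed enzyme of the pathway, fell from 557, 457 and 480 CPM to 304, 293 and 286 CPM (-0.76 ± 0.12, adjusted p = 0.000539). The groups did not overlap for PORB or HEMA1.

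Abscisic acid, drought and cold genes were 7 higher (18.4%, against 5.02% of all genes) and 4 lower (10.5%, against 4.72%) among 38 tested. DREB2A, a drought and heat transcription factor, was at 8.01, 8.81 and 5.65 CPM in mock and 36.2, 39.0 and 30.2 CPM in H2O2 libraries (2.23 ± 0.19, adjusted p = 1.84e-06). The abscisic acid response factor ABF1 rose from 14.3, 14.8 and 13.3 CPM to 42.6, 47.4 and 41.1 CPM (1.63 ± 0.15), whereas ABF3 fell (-0.68 ± 0.13, adjusted p = 0.00279). Salicylic acid and immunity genes were 4 higher (16.7%, against 5.02% of all genes) and 1 lower (4.17%, against 4.72%) among 24 tested. The higher members numbered 1 without mock replicate 1 and 2 without mock replicate 3 or H2O2 replicate 3. PAD3, which makes the defence compound camalexin, rose from 3.52, 2.79 and 2.48 CPM to 9.35, 6.77 and 9.44 CPM (1.54 ± 0.27, adjusted p = 0.00166). WRKY53, a senescence factor, was the member that fell (-1.09 ± 0.20, adjusted p = 0.00244).

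Of the 12 largest rises and 12 largest falls among genes with a symbol, several belong to none of the groups above. NIP2;1, a water and lactic acid channel, was at 0.64, 0.892 and 0 CPM in mock and 14.8, 8.65 and 14.6 CPM in H2O2 libraries (4.64 ± 0.47, adjusted p = 1.59e-05), with 5.30 without mock replicate 2 and 4.03 without mock replicate 3. MEE14, named for an embryo arrest phenotype, went from 12.4, 14.1 and 9.32 CPM to 114, 78.5 and 108 CPM (3.07 ± 0.38). SQP1, a squalene monooxygenase of sterol synthesis, fell from 60.2, 53.8 and 107 CPM to 15.1, 11 and 13.9 CPM (-2.47 ± 0.26), and TBL26, a trichome birefringence-like protein, from 43.8, 25.4 and 73.2 CPM to 6.69, 6.68 and 4.06 CPM (-3.03 ± 0.44). Mock replicate 3 was the highest library for both falling genes. LEA3, a late embryogenesis abundant protein, had the lowest log2 fold change of the rule, -3.61 ± 0.72, with 47.7 CPM in mock replicate 3 against 16.4 and 14.6 CPM in the others, and was not called without H2O2 replicate 3 (adjusted p = 0.0526). Its value was -2.84 without mock replicate 3 and -4.21 without H2O2 replicate 1. UGT73C6, a flavonol glycosyltransferase, had -2.23 ± 0.47 and was not called without H2O2 replicate 2 or H2O2 replicate 3 (adjusted p up to 0.0594). BGAL10, a beta-galactosidase of cell walls (1.61 ± 0.11, adjusted p = 3.46e-07), and PMZ, a stress-associated zinc finger protein (2.80 ± 0.19, adjusted p = 3.49e-07), were among the 10 smallest adjusted p values.

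Promoter windows from 250 bases before to 50 bases after the start were read for 18055 tested genes and searched on both strands. The evening element, AAAATATCT, was in 11.5% of the promoters of rising genes, 3.04% of those of falling genes and 3.07% of all. It was in 6 of 10 promoters of the evening-phased list, among them FKF1, PRR5, LUX and TOC1. The G-box was in 11.2% of promoters of rising genes, 11.9% of those of falling genes and 8.82% of all, and in 10 of 12 promoters of the morning-phased list, PRR7 and RVE2 included although neither passed the test. The heat shock element was in 1.32% of promoters of rising genes, 0.82% of those of falling genes and 0.543% of all, and in 2 of the 12 small heat shock protein promoters, AT1G53540 and HSP17.4. A W-box, TTGACC or TTGACT, was in 31.4% of promoters of rising genes, 37.6% of those of falling genes and 32.8% of all. The mitochondrial dysfunction motif, CTTG and CAAG with 5 bases between them, was in 0.879%, 1.64% and 0.570% of promoters in the same order, and it was in 4 of 41 promoters of the oxidative response list (AOX1A and AT2G21640, which fell, and CYP81D8 and NDB2, which did not pass) and in 3 of 12 of the hypoxia list. None of these shares was tested, a match is not a bound site, and matches of the 5 motifs were counted separately, so 1 promoter can count for several.

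A peak of bZIP68-FLAG, called by the authors in 8-day seedlings and scored by them as 10 times the negative log10 of its p-value, was assigned to 22.7% of the genes tested. It was assigned to 28.1% of the rising genes and 36.4% of the falling genes, and the authors' shorter list, of stronger peaks near a start, gave 3.90%, 6.79% and 9.19% in the same order. The peak at LHY spanned the start with a score of 598, and those at FKF1 and HSP17.4 spanned it with scores of 155 and 149. At CAT2 the peak lay at -442 bases from the start with a score of 162. The shares were not tested, and the ChIP seedlings were younger and carry no spray in their labels.

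The bzip68 mutant under the same sprays was a separate set of 6 libraries, of the same age and light, and gave 748 rising (4.11%) and 598 falling genes (3.28%). Of the rising genes 508 were shared, 55.6% of the wild-type list and 67.9% of the mutant list, and of the falling genes 355, 41.3% and 59.4%. No gene rose in one genotype and fell in the other among the called genes, and 1666 of the 1773 called in the wild type had the same sign in the mutant. The difference of the responses passed the test for 0 genes with edgeR and 0 with limma voom, against 24 with DESeq2. With edgeR, 1178 of the 18205 genes tested had an unadjusted p under 0.05. Without mock replicate 3 of the wild type, 26 genes passed with edgeR.

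At the level of lists the difference between genotypes was not tested, and the values are given side by side. The 10 evening genes rose in both, with medians of 2.94 and 2.85, and FKF1 had 4.35 in each. The bzip68 values include replicate 2 of its mock group, 1 of the libraries that stand apart. Small heat shock proteins had a median of 2.53 in the wild type, where 8 of 12 rose, and 4.28 in bzip68, where 11 rose. Of all genes, 5.02% rose in the wild type and 4.11% in bzip68. Of the 12 differences, 9 had an unadjusted edgeR p under 0.05, as did 1178 of all 18205 genes. None of the 12 passed after adjustment over all genes (adjusted p of 0.588 or more). HSP17.6II had 3.89 ± 0.33 against 6.35 in bzip68. Of the oxidative response list, 19 of 41 genes rose and 0 fell in bzip68 (all genes: 4.11% and 3.28%), with a median of 0.91. In the wild type 8 rose and 4 fell (all genes: 5.02% and 4.72%), with a median of 0.30. AOX1A had -1.25 ± 0.28 in the wild type against 0.52 in bzip68 (adjusted p of the difference 0.588). Sugar starvation genes had medians of 0.63 and 0.24, and SEN1 had 2.40 ± 0.30 against 0.28 (adjusted p of the difference 0.588).

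**Figure D5:**
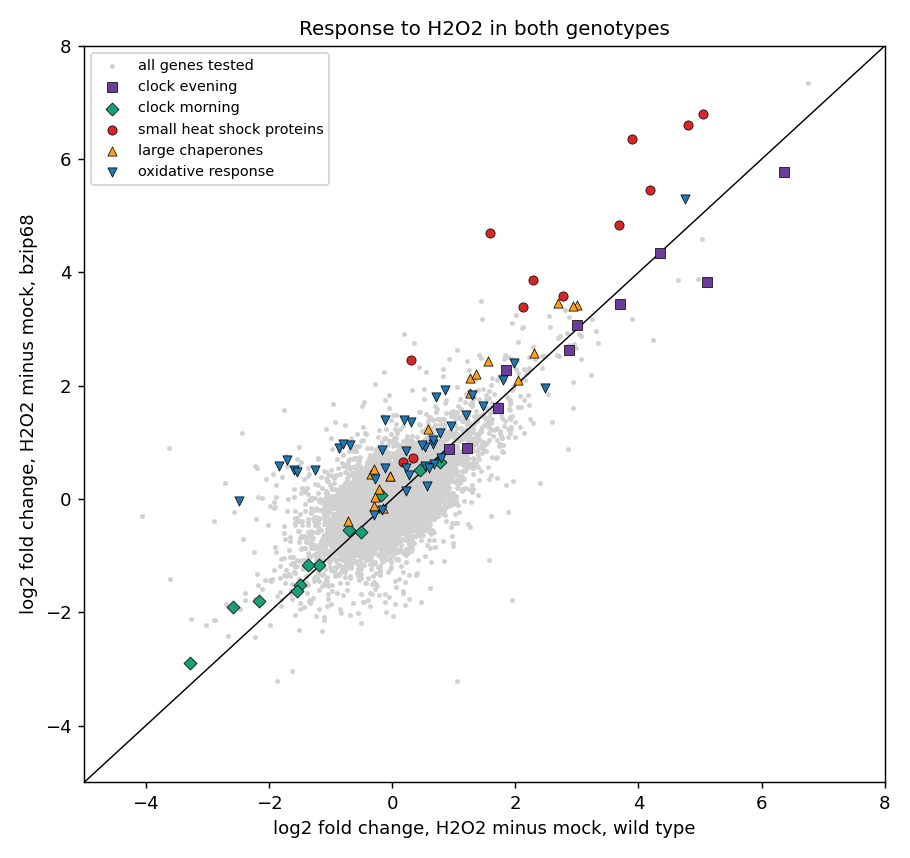
Log2 fold change after H2O2 in the wild type (horizontal) against that in bzip68 (vertical) for all genes tested (grey) and 5 lists, with the line of equal response. Clock genes lie near the line, while most small heat shock proteins and oxidative response genes lie above it, with medians of 4.28 and 0.91 in bzip68 against 2.53 and 0.30 in the wild type.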

How the data were processed

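RNA-seq values were whole-number counts per gene in 1 table of 18430 genes that the authors deposited. TopHat2 2.1.0, RSEM 2.1.30 and the TAIR10 build are named for them, with no roles given, per the submitters' processing notes. Reads of similar or overlapping genes may be split in that counting, and whether strand was used is not given in the sources used here. Of its per-sample columns 12 matched a label and 6 matched none and were not used. The peaks deposited by the authors carry a score, 10 times the negative log10 of the p-value, per the file headers. MACS 1.4.3 and ChIPseeker are named for them, per the submitters' processing notes.

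The fit held 12 libraries in 4 groups (mock and H2O2, wt and bzip68, 8 residual degrees of freedom): filterByExpr by group, TMM scaling, and edgeR 4.0.16 quasi-likelihood F-tests with a robust fit and Benjamini-Hochberg adjustment over 18205 genes. CPM are on TMM-scaled library sizes, and standard errors come from the F statistic. On simulated counts for H2O2 against mock in the wild type (18151 genes in all), 29.9% of genes changed 1.5-fold, 88.1% changed 2-fold and 98.5% changed 4-fold were called, with 13 false calls. Wild-type libraries of a group differed beyond sampling noise, with chi-square values of 6.06 to 16.2 for each degree of freedom. Alternatives used limma 3.58.1, DESeq2 1.42.0, other scalings and filters, and each wild-type library left out.

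The comparison, gene lists, motifs and tests were chosen with earlier results of these data known. Lists were described by counts and medians, with no set test. Genes named were BZIP68, the 12 largest rises and falls among called genes that carry a symbol, average 5 CPM or more in their higher group and separate mock from H2O2, the 10 smallest adjusted p values, up to 4 members a list with the smallest adjusted p, and clock, small heat shock protein and reactive oxygen genes. Other list members are named as examples chosen after their values were seen. Promoters and gene names are from RefSeq, build TAIR10.1, in which 18272 of the 18430 gene identifiers were found. The promoter sequence of 1 evening-phased gene is not reported here.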

Additional observations from a re-analysis of the deposited data

How the results depend on the processing

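Of 201 list members and named genes that were called, none changed direction under any alternative run, whereas some that did not pass, such as AT5G51440 (0.31, lowest -0.04) and CSD1 (0.16, lowest -0.04), crossed 0. Of the 201, 134 were called in every alternative and 67 lost the call in at least 1. Genes called higher numbered 549 (without mock replicate 3), 588 (without mock replicate 1) and up to 850 as 1 wild-type library was left out, and genes called lower 541 (without H2O2 replicate 3), 557 (without mock replicate 1) and up to 694. The cause was not tested, though each such fit has fewer samples. Genes whose response differed between genotypes numbered 0 in edgeR but 24 with the DESeq2 Wald test and 0 to 26 as 1 library was left out (26 without mock replicate 3). DESeq2 called 1012 higher and 998 lower, and the 6 wild-type libraries alone 1067 and 1035.

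Same-numbered mock and H2O2 libraries had correlations of -0.15, -0.07 and -0.10 of their deviations from the group means, and other pairs had -0.05 to 0.16. Deviations from a mean of 3 libraries are tied to each other, so these values cannot decide whether replicate numbers pair the samples. With a replicate block, 1094 genes were higher, 1093 lower and 8 differed between genotypes. Genes changed 1.5-fold were called in 29.9% of simulated cases, so changes of that size or smaller may have gone uncalled. The simulation changed far fewer genes than were called here, which moves the adjusted p, so its share need not hold for these data. Some smaller changes were called, such as MDAR2 (1.38-fold) and RBCS2B (1.43-fold).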

Other observations

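Several nutrient groups also held changed genes. FER1, a ferritin that stores iron in plastids, was at 338, 294 and 288 CPM in mock and 95.7, 124 and 108 CPM in H2O2 libraries (log2 fold change -1.49 ± 0.16, edgeR adjusted p = 1.75e-05). In all, 5 of 14 tested iron genes fell (35.7%, against 4.72% of all genes) and 1 rose (7.14%, against 5.02%). The falls numbered 2 without mock replicate 1 or mock replicate 3 and 3 without mock replicate 2 or H2O2 replicate 1. Of 12 nitrate genes, 3 fell (25.0%, against 4.72% of all genes) and 0 rose, with 1 to 3 falls as 1 library was left out. The high-affinity nitrate transporter NRT2.1 fell from 8.11, 10.9 and 9.02 CPM to 6, 4.89 and 4.67 CPM (-0.85 ± 0.18, edgeR adjusted p = 0.007). Among 12 sulfur and glutathione genes, 2 rose (16.7%, against 5.02% of all genes) and 1 fell (8.33%, against 4.72%). LSU1, a sulfur deficiency marker, rose (1.37 ± 0.23) and APR2, a sulfate assimilation reductase, fell (-0.82 ± 0.15).

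Cell wall genes moved in both directions, with 3 of 18 higher (16.7%, against 5.02% of all genes) and 4 lower (22.2%, against 4.72%). XTH18, a xyloglucan endotransglucosylase, was at 192, 212 and 131 CPM in mock and 71.7, 63.9 and 64.6 CPM in H2O2 libraries (-1.42 ± 0.20, edgeR adjusted p = 0.000318). Its relatives XTH19 and XTH17 changed by -1.59 ± 0.20 and -1.11 ± 0.18, whereas XTH20 changed by 1.15 ± 0.21. In bzip68 the value for XTH18 was 0.15, and the difference did not pass after adjustment (adjusted p = 0.522). Of 18 glucosinolate genes, 1 rose (5.56%, against 5.02% of all genes) and 5 fell (27.8%, against 4.72%). The falls numbered 1 without H2O2 replicate 2, 2 without mock replicate 1 and 3 without mock replicate 2 or 3. MYB51, an activator of indole glucosinolates, rose (1.18 ± 0.20) and MYB34, another activator of them, fell (-0.86 ± 0.15). Of 22 tested auxin and brassinosteroid genes, 1 rose and 4 fell (all genes: 5.02% higher, 4.72% lower), with a median log2 fold change of -0.37. The falls numbered 0 to 4 as 1 library was left out. The member that rose was the brassinosteroid enzyme CPD (0.70 ± 0.12, edgeR adjusted p = 0.000943). CPD went from 51.7, 54 and 49.5 CPM to 86.6, 77.5 and 87.2 CPM. Another brassinosteroid enzyme, BR6OX2, fell (-0.6, edgeR adjusted p = 0.0445). BR6OX2 was not called when any 1 library was left out (adjusted p up to 0.214).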
